A study of Homo sapiens with 6 samples.

Results

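A set of 10 genes for surface and secreted proteins through which tumour cells address T cells, natural killer (NK) cells and macrophages were followed in prostate cancer cells with lowered NSD2. They are CD47, CD276, PVR, NECTIN2, TNFSF4, LGALS3, MICA, MICB, ULBP2 and CD274, taken by symbol from the table of raw counts, and all 10 had a row among its 31413 genes. The cells were C42, a human prostate cancer line usually written C4-2 and derived from LNCaP, grown in RPMI with serum. The 3 shNSD2 libraries (numbered 1, 2 and 3) carried an shRNA against NSD2, also named WHSC1, an enzyme that dimethylates histone H3 at lysine 36. The 3 shCTR libraries (numbered 1, 2 and 4) carried a control shRNA. The title of the series concerns immune infiltration. Whether each group used 1 hairpin or several, and whether the libraries came from separate cultures, is not given in the sources used here, so the spread that the p-values rest on may be technical.

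Checkpoint ligands bind inhibitory receptors on immune cells and damp their response. CD47 binds SIRPA on macrophages and signals against phagocytosis. CD274 (PD-L1) binds PDCD1 (PD-1) on T cells. PVR and NECTIN2 bind both the activating receptor CD226 and the inhibitory receptor TIGIT. MICA, MICB and ULBP2 are stress-induced ligands of NKG2D, an activating receptor of NK cells. These proteins are also set by cleavage, trafficking and glycosylation, which transcript counts do not show.

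Of the 10 ligand genes, 4 fell in shNSD2 libraries (CD47, CD276, PVR and TNFSF4), 1 rose (ULBP2) and 4 did not pass the test (NECTIN2, MICA, LGALS3 and CD274). MICB was too low to be tested. A gene was called at an adjusted p under 0.05 in edgeR's quasi-likelihood test over all 17160 genes that passed a filter on low counts. Of all those genes, 15.2% were called lower and 15.5% higher, 30.7% in either direction. The median log2 fold change (shNSD2 over shCTR) of the 9 tested ligand genes was -0.32, against 0.01 over all genes tested. That median is the value of LGALS3 itself and is no firmer than it. LGALS3, with 6 to 13 counts per library, and CD274, with 11 to 20, passed the filter but are too low to judge, as is MICB with 0 to 3.

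**Figure D1:**
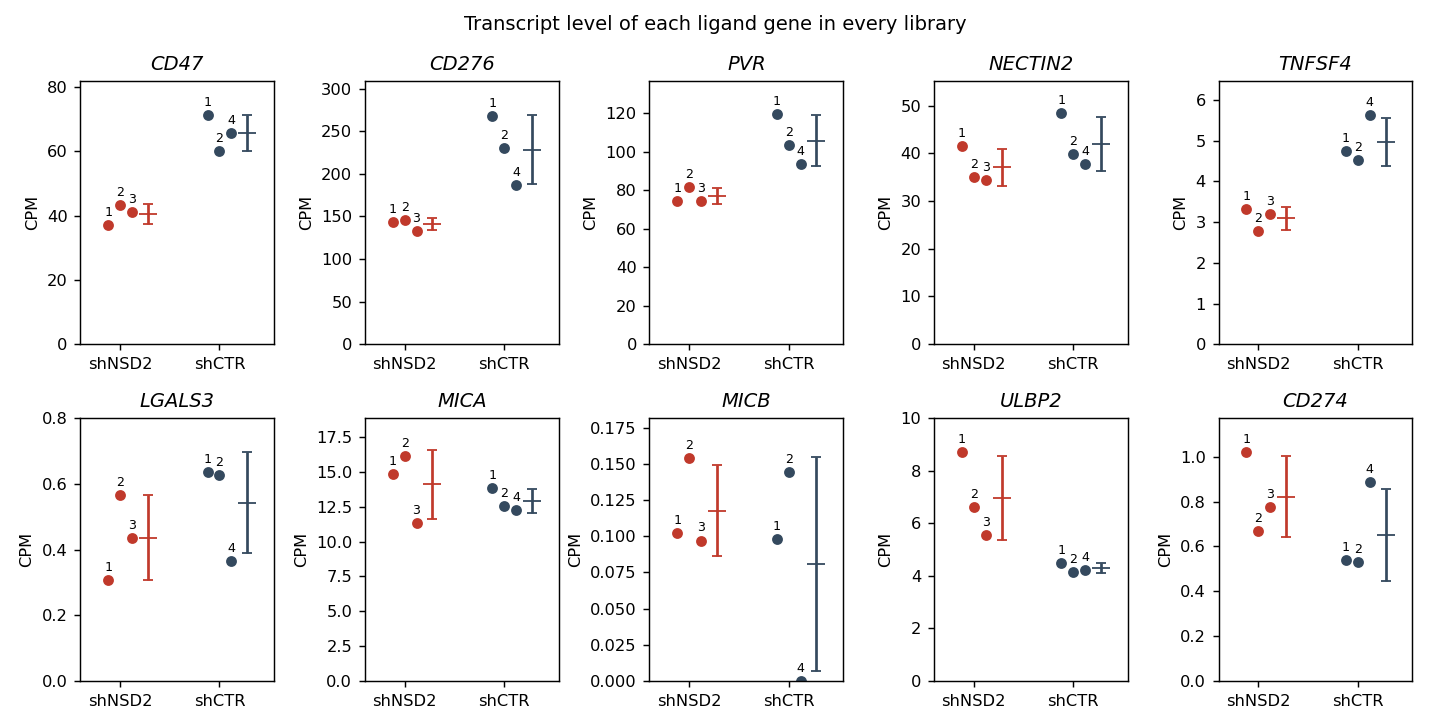
Transcript level of each of the 10 ligand genes in CPM (counts scaled to library size; vertical axis from 0, scaled separately for each gene), with shNSD2 libraries in red on the left and shCTR libraries in dark blue on the right. Each point is 1 library with its number, and the bar beside the points is the mean with its SD over 3 libraries. CD47, CD276, PVR and TNFSF4 lie lower in every shNSD2 library than in any shCTR library, and ULBP2 lies higher.

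Total counts ran from 19448983 to 20462197 in shNSD2 libraries and from 19412896 to 20665494 in shCTR libraries, so that a floor of 3 counts was 0.145 to 0.155 CPM, which covers counting error only. NSD2 itself stood at 87.1 ± 2.28 CPM in shNSD2 libraries and 214 ± 12.1 CPM in shCTR libraries (SD, n = 3 each; edgeR log2 fold change -1.30, adjusted p = 8.03e-05). The control libraries were spread. An axis was fitted over 11218 genes of 5 CPM or more, with 0 at the average of the remaining controls and 1 at the shNSD2 average. On it, shCTR 4 lay at 0.49, shCTR 2 at -0.001 and shCTR 1 at -0.45, so this axis does not single out shCTR 4. The chi-square per gene between the counts of 2 libraries was 43.8 for shCTR 4 with shCTR 1 and 20.9 with shCTR 2. It was 11.1 for shCTR 1 with shCTR 2. Values without shCTR 4 are given for some genes only. The luminal prostate marker KLK3 was present in both groups, at 5831 ± 220 CPM in shNSD2 libraries and 6628 ± 358 CPM in shCTR libraries (SD, n = 3 each). Of 15 leukocyte markers, 11 were analysed, and they summed to 6.57 to 8.98 CPM in shNSD2 libraries and 6.17 to 7.92 CPM in shCTR libraries, with CD8A and CORO1A as the largest. PTPRC, CD3E, CD3D and MS4A1 had no row under these symbols among the 31413 genes, so they were not analysed.

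CD47, the macrophage signal, showed the smallest p of the ligand genes. Its levels were 37.0, 43.3 and 41.3 CPM in the shNSD2 libraries, against 71.4, 60.1 and 65.7 CPM in the shCTR libraries. The groups did not overlap, and shCTR 4 lay between the other controls. Among all genes tested, 46.8% had groups that did not overlap. The shNSD2 level was 61.6% of the control level, a log2 fold change of -0.70 (SE 0.0965, 95% interval -0.91 to -0.48, edgeR adjusted p = 0.00141). In bulk RNA, less transcript per cell and fewer cells with the transcript cannot be told apart. Without shCTR 4 the log2 fold change was also -0.70 (adjusted p = 2.24e-05). CD47 (ENSG00000196776) lies on chromosome 3 of GRCh38 from 108043094 to 108091862, on the minus strand. The 250 bases before its RefSeq start, with GC boxes (GGGCGG, both strands) in capitals, are shown because it is the member with the firmest fall. They span chr3:108091032-108091281 of GRCh38.p14, minus strand, from RefSeq, whose start for CD47 lies inside the GENCODE 29 gene given above, so that the window does too.
CD47: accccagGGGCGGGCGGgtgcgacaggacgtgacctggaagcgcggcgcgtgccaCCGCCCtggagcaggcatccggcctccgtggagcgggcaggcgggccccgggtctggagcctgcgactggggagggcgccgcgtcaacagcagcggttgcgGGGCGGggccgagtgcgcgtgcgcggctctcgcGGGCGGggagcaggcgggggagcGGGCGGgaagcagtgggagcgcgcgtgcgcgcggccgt
The window is 79.6% G and C, against a median of 58.0% over the upstream windows of 27305 genes, and holds 6 GC boxes, 1 pair of which overlaps. A match to a motif is a description of the letters only.

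Genes that act with CD47 were measured beside it. SIRPA, the receptor for CD47, stood at 10.1, 6.98 and 6.64 CPM in the shNSD2 libraries and at 2.98, 3.81 and 3.65 CPM in the shCTR libraries, without overlap. It rose 2.27-fold (log2 fold change 1.18, SE 0.194, edgeR adjusted p = 0.00274), and its call held with any 1 library left out (log2 fold change 0.97 to 1.29). SIRPA was named after its values were seen, from a list of 10 receptors of the ligands, of which 2 were tested and the other, LAG3, was not called. The leukocyte marker sums of both groups are given above. Their part in the SIRPA rise was not tested. Of 5 tested genes of phagocytosis signals other than CD47 (8 listed), 2 fell and 3 did not pass the test (list median -0.15). Over all genes tested, 15.2% fell. THBS1, the secreted glycoprotein thrombospondin 1 and another partner of CD47, fell to 93.7 ± 30.1 CPM in shNSD2 libraries, against 588 ± 304 CPM in shCTR libraries (SD, n = 3 each; edgeR adjusted p = 0.00117). CALR, the chaperone calreticulin, which acts at the cell surface as a signal for uptake, stood at 1449 ± 124 CPM in shNSD2 libraries and 1887 ± 144 CPM in shCTR libraries (SD, n = 3 each; log2 fold change -0.38, edgeR adjusted p = 0.0386). The call of CALR was lost in the 5 fits that leave out a library other than shCTR 4 (adjusted p up to 0.156). QPCTL, the enzyme that modifies CD47 so that SIRPA binds it, had a log2 fold change of 0.09 (adjusted p = 0.508).

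CD276 (B7-H3), a member of the B7 family that is widely expressed on tumours, had the highest count of the 10 genes. Its levels were 143.6, 145.8 and 133.3 CPM in the shNSD2 libraries, against 268, 230.0 and 187 CPM in the shCTR libraries. The groups did not overlap, and the control values were spread more widely, with shCTR 4 the lowest of them. The log2 fold change was -0.70 (SE 0.126, 95% interval -0.97 to -0.42, edgeR adjusted p = 0.00403). It was -0.82 without shCTR 4 and -0.57 without shCTR 1, the ends of the range with 1 library left out (edgeR adjusted p at most 0.0257). CD276 (ENSG00000103855) lies on chromosome 15 from 73683966 to 73714518. CD274, which encodes PD-L1, had 20, 13 and 16 counts in the shNSD2 libraries and 11, 11 and 17 counts in the shCTR libraries, which overlap. Its log2 fold change was 0.34 with a 95% interval of -0.37 to 1.05 (edgeR adjusted p = 0.442), so its direction cannot be told at this depth. Without shCTR 4 the log2 fold change was 0.61 (adjusted p = 0.191), and without shCTR 1 it was 0.21 (adjusted p = 0.713). CD274 (ENSG00000120217) lies on chromosome 9 from 5450503 to 5470566.

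The other genes of the B7 family were mostly below the filter. Of 8 listed, 2 were tested and 1 fell, while 15.2% of all genes tested fell. NCR3LG1 (B7-H6), a ligand of the NK receptor NKp30, stood at 27.6, 28.1 and 22.8 CPM in the shNSD2 libraries and 50.5, 43.8 and 27.7 CPM in the shCTR libraries. The groups overlapped because shCTR 4 lay among the shNSD2 libraries. The log2 fold change was -0.64 (SE 0.185, edgeR adjusted p = 0.0263), and -0.85 without shCTR 4 (adjusted p = 8.34e-06). The call was lost in each fit without another library (adjusted p 0.0554 to 0.106). The other tested gene was not called, and the 5 untested genes with a row had at most 7 counts in a library.

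PVR, the poliovirus receptor (CD155), also fell. Its levels were 74.3, 81.7 and 74.4 CPM in the shNSD2 libraries, against 119.7, 103.6 and 93.7 CPM in the shCTR libraries. The groups did not overlap, and shCTR 4 was again the control nearest to the shNSD2 libraries. The log2 fold change was -0.46 (SE 0.103, 95% interval -0.69 to -0.23, edgeR adjusted p = 0.00917). It was -0.54 without shCTR 4 and -0.37 without shCTR 1, the ends of the range with 1 library left out (edgeR adjusted p at most 0.0471). NECTIN2 (CD112) shares the receptors CD226 and TIGIT with PVR. NECTIN2 had 41.6, 35.1 and 34.4 CPM in the shNSD2 libraries and 48.5, 39.8 and 37.8 CPM in the shCTR libraries, which overlap. Its log2 fold change was -0.18 (SE 0.115, 95% interval -0.44 to 0.07, edgeR adjusted p = 0.244). Without shCTR 4 it was -0.25 (adjusted p = 0.0558), and without shCTR 1 it was -0.08 (adjusted p = 0.636). PVR (ENSG00000073008) and NECTIN2 (ENSG00000130202) lie on chromosome 19, from 44643798 to 44663583 and from 44846175 to 44889228. PVR shares 121 exon bases, 3.44% of its exons, with CEACAM19, which had 49 to 100 counts per library. Whether counting used the strand is not given in the sources used here.

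Nectins and their relatives are adhesion molecules of cell junctions that also bind immune receptors. Of 6 tested (7 listed), 3 fell and 3 did not pass the test, and all 6 had a negative log2 fold change (median -0.27). Over all genes tested, 8499 of 17160 had a negative log2 fold change and 15.2% were called lower. NECTIN3, the trans-partner of other nectins, stood at 1.63, 2.105 and 1.99 CPM in the shNSD2 libraries, against 7.82, 7.76 and 4.69 CPM in the shCTR libraries. It fell 3.54-fold (log2 fold change -1.82, SE 0.230, edgeR adjusted p = 9.86e-04). NECTIN1 fell to 96.3 ± 6.02 CPM in shNSD2 libraries, against 125.6 ± 9.46 CPM in shCTR libraries (SD, n = 3 each; edgeR adjusted p = 0.0126), a call lost without shNSD2 3 (adjusted p = 0.0657). CADM1, which binds CRTAM on lymphocytes, had a log2 fold change of -0.43 (adjusted p = 0.0179). Its call was lost in every fit that left out a library other than shCTR 4 (adjusted p 0.0532 to 0.0718) and once GC content and length were corrected for (log2 fold change -0.22, adjusted p = 0.0967).

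**Figure D2:**
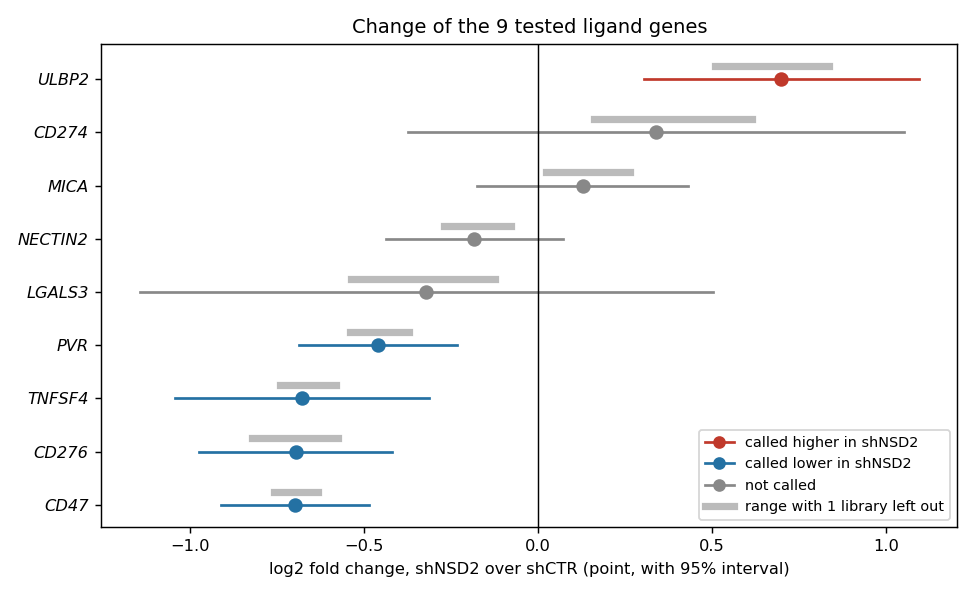
Log2 fold change (shNSD2 over shCTR, horizontal axis) of the 9 tested ligand genes, with its 95% interval as a thin line and the range over fits with 1 library left out as a grey bar. ULBP2 is called higher, and PVR, TNFSF4, CD276 and CD47 are called lower, while the interval of each other gene crosses 0.

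ULBP2, a GPI-anchored ligand of NKG2D, was the ligand gene that rose. Its levels were 8.72, 6.62 and 5.58 CPM in the shNSD2 libraries, against 4.50, 4.14 and 4.22 CPM in the shCTR libraries. The groups did not overlap, and shNSD2 1 was the highest. The log2 fold change was 0.70 (SE 0.179, 95% interval 0.30 to 1.09, edgeR adjusted p = 0.0163). The call was lost without shNSD2 1 (0.51, adjusted p = 0.0598) and without shCTR 2 (0.67, adjusted p = 0.0614), and was kept without shCTR 4 (0.69, adjusted p = 0.00693). Of the 50-base windows of the ULBP2 transcript, 29.4% also occur in RAET1L and 11.6% in RAET1G, so reads may be split among them. RAET1L had 6, 15 and 14 counts in the shNSD2 libraries and 5, 3 and 4 counts in the shCTR libraries. RAET1G had 7, 12 and 9 counts in the shNSD2 libraries and 9, 6 and 14 counts in the shCTR libraries, which overlap. Both were below the filter. With the 3 genes summed, an alternative chosen after the data were seen, the log2 fold change was 0.69 (adjusted p = 0.00972). ULBP2 (ENSG00000131015) lies on chromosome 6 from 149942000 to 149949235. The 250 bases before its RefSeq start, chr6:149941764-149942013 of GRCh38.p14, plus strand, are shown as those of the ligand gene that rose, with the CCAAT box (CCAAT, both strands) in capitals.
ULBP2: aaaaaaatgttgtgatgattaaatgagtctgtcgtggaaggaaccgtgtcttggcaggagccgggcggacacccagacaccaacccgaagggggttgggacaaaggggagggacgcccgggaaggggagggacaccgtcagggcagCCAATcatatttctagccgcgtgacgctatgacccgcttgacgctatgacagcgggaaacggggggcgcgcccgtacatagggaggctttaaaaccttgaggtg
The window is 58.0% G and C and holds 1 CCAAT box, which 33.0% of the 27305 upstream windows hold at least once.

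MICA and MICB are neighbouring genes of the MHC region whose proteins resemble class I heavy chains, and they differed widely in level. MICA had 14.8, 16.2 and 11.3 CPM in the shNSD2 libraries and 13.9, 12.5 and 12.3 CPM in the shCTR libraries. The groups overlapped, and the log2 fold change was 0.13 (SE 0.137, 95% interval -0.18 to 0.43, edgeR adjusted p = 0.498), so a fall of more than 0.18 or a rise of more than 0.43 on the log2 scale lies outside that interval. MICB had 2, 3 and 2 counts in the shNSD2 libraries and 2, 3 and 0 counts in the shCTR libraries, at or under the floor of 3 counts, and no fold is given. Per kilobase of exon, MICA stood at 5.92 ± 1.05 CPM in shNSD2 libraries and 5.41 ± 0.359 CPM in shCTR libraries, and MICB at 0.0421 ± 0.0113 CPM in shNSD2 libraries and 0.0289 ± 0.0264 CPM in shCTR libraries (SD, n = 3 each). Only 2.04% of the 50-base windows of the MICA transcript occur in MICB. MICA (ENSG00000204520) lies on chromosome 6 from 31399784 to 31415315 and MICB (ENSG00000204516) from 31494881 to 31511124, both on the plus strand. The 250 bases before their RefSeq starts are shown because the sequences are alike while the levels are not. They span chr6:31403345-31403594 for MICA and chr6:31497895-31498144 for MICB (GRCh38.p14, RefSeq). Both RefSeq starts, and so both windows, lie inside the GENCODE 29 genes given above. Capitals mark GAANNTTC, a pair of facing heat shock units.
MICA: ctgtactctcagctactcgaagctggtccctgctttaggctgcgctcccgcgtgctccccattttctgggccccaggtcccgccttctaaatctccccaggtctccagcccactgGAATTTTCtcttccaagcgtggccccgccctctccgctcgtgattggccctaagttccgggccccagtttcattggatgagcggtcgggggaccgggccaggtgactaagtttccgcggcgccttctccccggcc
MICB: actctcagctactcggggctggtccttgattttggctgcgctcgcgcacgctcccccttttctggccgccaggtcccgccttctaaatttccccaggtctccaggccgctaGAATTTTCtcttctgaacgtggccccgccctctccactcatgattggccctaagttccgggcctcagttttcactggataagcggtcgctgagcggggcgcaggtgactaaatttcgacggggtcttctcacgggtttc
The windows matched at 210 of 246 aligned bases (85.4%). Both held 1 GAANNTTC match, with the same letters, as 5.85% of all upstream windows did at least once, and no other member did. Other motifs searched on both strands were the reverse arrangement TTCNNGAA (0 of 10 members, 6.72% of all), GAS (TTCNNNGAA, CD274 of 10 members, 6.78% of all), TATAAA (0 of 10 members, 11.1% of all), CCAAT (4 of 10 members) and the GC box (8 of 10 members, 42.3% of all). All 10 members had a window in the RefSeq table.

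Of the 5 other listed NKG2D ligands, 3 were tested and 0 passed in any of edgeR, DESeq2 and limma-voom, with 2 at an unadjusted p under 0.05 in edgeR. The list median was -0.48. ULBP1, the most abundant of them, had 17.0, 15.3 and 13.5 CPM in the shNSD2 libraries and 10.7, 9.69 and 14.4 CPM in the shCTR libraries. The groups overlapped through shCTR 4, and the log2 fold change was 0.40 (edgeR adjusted p = 0.0735). It was 0.58 without shCTR 4 (adjusted p = 0.00131) and 0.43 with GC content and length corrected for (adjusted p = 0.0464). ULBP1 was called in 1 of the 6 fits that leave out a library (log2 fold change 0.28 to 0.58). ULBP3 had a log2 fold change of -0.48 (adjusted p = 0.0833), or -0.65 with GC content and length corrected for (adjusted p = 0.0362). RAET1E had a log2 fold change of -0.59 (adjusted p = 0.121). The NKG2D ligands tested thus had values on both sides of 0, and the call for a rise was that of ULBP2.

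NKG2D ligands are shed from the cell surface by metalloproteases, and the disulphide isomerase PDIA6 (ERp5) assists the shedding of MICA. Of 11 tested genes for stability and shedding of the ligands (13 listed), 4 fell and 1 rose, with a median of -0.11. Over all genes tested, 15.2% fell and 15.5% rose. PDIA6 stood at 228, 237 and 199 CPM in the shNSD2 libraries, against 384, 320.3 and 304 CPM in the shCTR libraries, without overlap (log2 fold change -0.60, SE 0.116, edgeR adjusted p = 0.00516). ADAM9 fell to 196 ± 36.6 CPM in shNSD2 libraries, against 357 ± 99.3 CPM in shCTR libraries (SD, n = 3 each; edgeR adjusted p = 0.0102), and its call was lost without shNSD2 3 (adjusted p = 0.0503). ADAM10 fell to 194 ± 20.3 CPM in shNSD2 libraries, against 297 ± 70.5 CPM in shCTR libraries (SD, n = 3 each; edgeR adjusted p = 0.0173). The call of ADAM10 was lost without shNSD2 2, shNSD2 3 or shCTR 2 (adjusted p = 0.0590, 0.0794 and 0.0623) and with GC content and length corrected for (-0.28, adjusted p = 0.0828). ADAM17, the sheddase TACE, and STUB1, a ubiquitin ligase that acts on PD-L1, were the other called genes, named after their values were seen. ADAM17 had a log2 fold change of -0.55 (adjusted p = 0.0309) and STUB1 of 0.29 (adjusted p = 0.0213). Both calls were lost when any library but shCTR 4 was left out, and with GC content and length corrected for (-0.29 for ADAM17 and 0.02 for STUB1). CMTM6, which keeps PD-L1 at the surface, had a log2 fold change of -0.11 (adjusted p = 0.417).

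TNFSF4 encodes OX40 ligand, a TNF superfamily member that costimulates T cells through TNFRSF4. It had 3.315, 2.77 and 3.20 CPM in the shNSD2 libraries, against 4.74, 4.53 and 5.63 CPM in the shCTR libraries. The groups did not overlap, and shCTR 4 was the highest control, unlike for CD276 and PVR. The log2 fold change was -0.68 (SE 0.165, 95% interval -1.04 to -0.31, edgeR adjusted p = 0.0134), or -0.58 without shCTR 4. Counts were 54 to 66 in shNSD2 libraries and 94 to 108 in shCTR libraries. The call was lost without shNSD2 2 (-0.60, adjusted p = 0.0619), with adjusted p 0.0137 to 0.0478 in the other fits that leave out a library. TNFSF4 (ENSG00000117586) lies on chromosome 1 from 173183734 to 173207313.

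Of 15 other TNF superfamily ligands, 4 were tested, all with a positive log2 fold change (median 0.33), and 1 was called. Over all genes tested, 8661 of 17160 had a positive log2 fold change and 15.5% were called higher. TNFSF13 (APRIL), a survival factor for B cells, stood at 14.96 ± 0.864 CPM in shNSD2 libraries and 11.6 ± 1.49 CPM in shCTR libraries (SD, n = 3 each; log2 fold change 0.37, edgeR adjusted p = 0.0379). That call was lost in the 5 fits that leave out a library other than shCTR 4 (adjusted p 0.0594 to 0.133). The call was also lost in DESeq2 (0.0531), without the low-count filter (0.0511) and after the GC content and length correction (log2 fold change 0.21, adjusted p = 0.164). Among the 5 TNF superfamily ligands tested, TNFSF4 had the negative log2 fold change in the main fit. That of TNFSF10 was 0.12 (edgeR adjusted p = 0.832) and ranged from -0.24 to 0.39 with 1 library left out.

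LGALS3 encodes galectin-3, a lectin that binds glycans on T-cell receptors and LAG3. It had 6, 11 and 9 counts in the shNSD2 libraries and 13, 13 and 7 counts in the shCTR libraries, which overlap. Its log2 fold change was -0.32 with a 95% interval of -1.14 to 0.50 (edgeR adjusted p = 0.533), which allows a change in either direction. Without shCTR 4 the log2 fold change was -0.53 (adjusted p = 0.307), and without shCTR 1 it was -0.21 (adjusted p = 0.775). LGALS3 (ENSG00000131981) lies on chromosome 14 from 55124110 to 55145413. Of 9 other galectin genes listed, 4 were tested and 0 passed in any of edgeR, DESeq2 and limma-voom, with 1 at an unadjusted p under 0.05 in edgeR (median 0.13). LGALS8, the most abundant, had 56.45, 54.8 and 57.5 CPM in the shNSD2 libraries and 47.7, 48.7 and 49.9 CPM in the shCTR libraries (log2 fold change 0.21, edgeR adjusted p = 0.0638). LGALS8 passed the test without shCTR 4 (adjusted p = 0.0293) and with upper-quartile scaling (log2 fold change 0.23, adjusted p = 0.0419). It also passed with GC content and length corrected for (log2 fold change 0.42, adjusted p = 0.00595).

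Other ligands and adhesion partners of NK cells were mixed, 1 of 6 tested rising and 1 falling (12 listed, median 0.01). Over all genes tested, 15.5% rose and 15.2% fell. HLA-E, which binds the inhibitory receptor pair CD94 and NKG2A, stood at 20.6, 20.2 and 16.05 CPM in the shNSD2 libraries and 12.6, 13.8 and 14.8 CPM in the shCTR libraries (log2 fold change 0.46, edgeR adjusted p = 0.0181). Its call was lost without shNSD2 1, shNSD2 2, shCTR 1 or shCTR 2 (adjusted p 0.0553 to 0.0738), and HLA genes are so alike that reads may be split among them. CDH1, E-cadherin, a ligand of the NK receptor KLRG1, stood at 766 ± 105 CPM in shNSD2 libraries and 1075 ± 205 CPM in shCTR libraries (SD, n = 3 each; edgeR adjusted p = 0.0381), overlapping through shCTR 4. Its call was lost in the 5 fits that leave out another library (adjusted p 0.0529 to 0.155). ICAM1, CD58 and BAG6 had log2 fold changes of -0.01, 0.03 and 0.06.

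**Figure D3:**
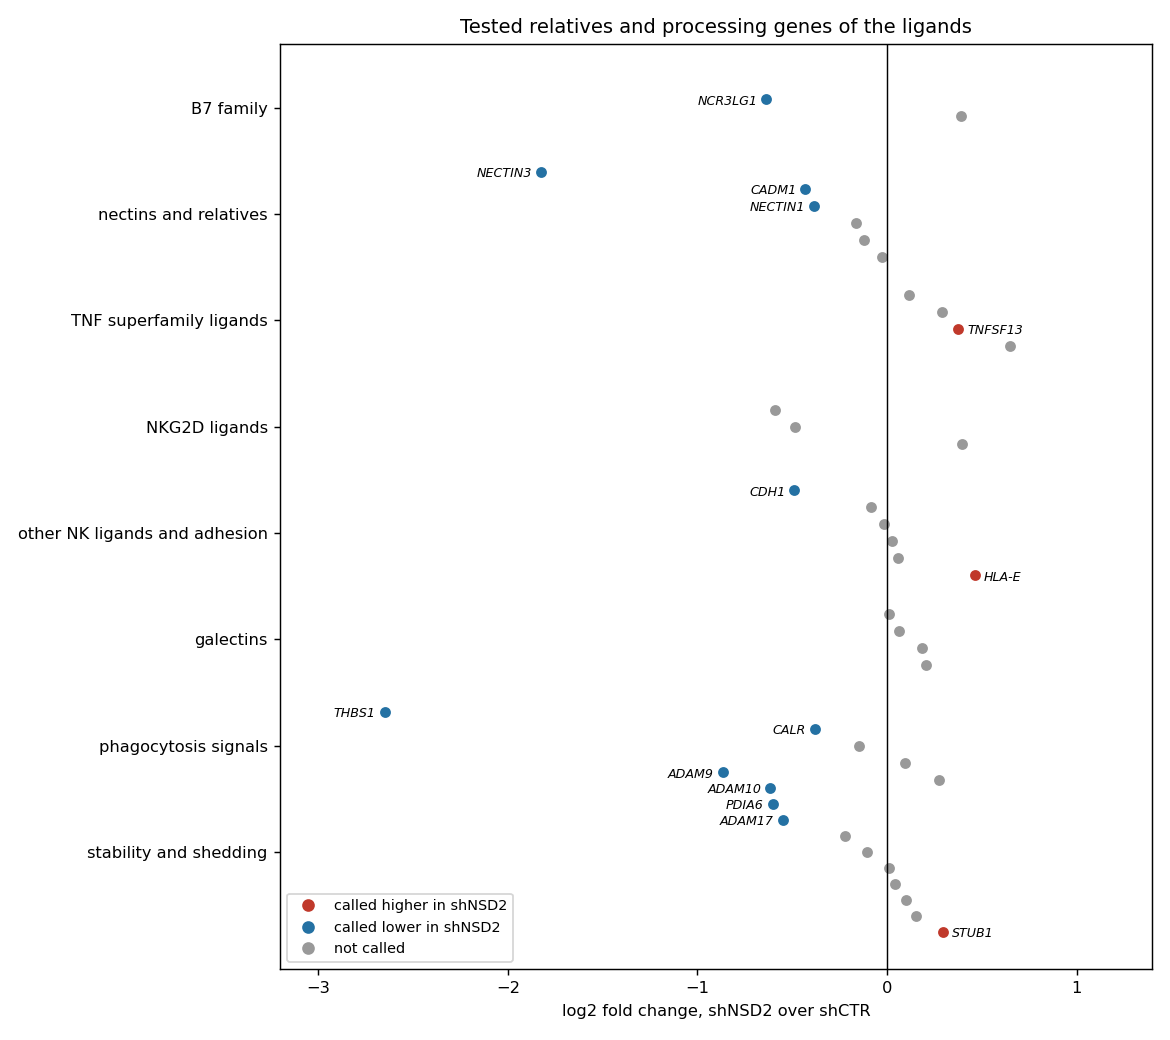
Log2 fold change (shNSD2 over shCTR, horizontal axis) of the 41 tested genes of 8 lists related to the ligands, 1 point per gene, with genes called higher in red, called lower in blue and not called in grey. Of these, 3 are called higher and 11 lower, and THBS1 (-2.65) and NECTIN3 (-1.82) lie farthest from 0.

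Across these 8 lists, 3 of 41 tested genes rose and 11 fell (77 listed), against 15.5% and 15.2% of all genes tested, with a median of -0.01. Without shCTR 4 the counts were 7 higher and 13 lower. Without shNSD2 1, shNSD2 2, shNSD2 3, shCTR 1 or shCTR 2 they were 1, 0, 1, 0 and 0 higher and 6, 5, 3, 6 and 5 lower.

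**Figure D4:**
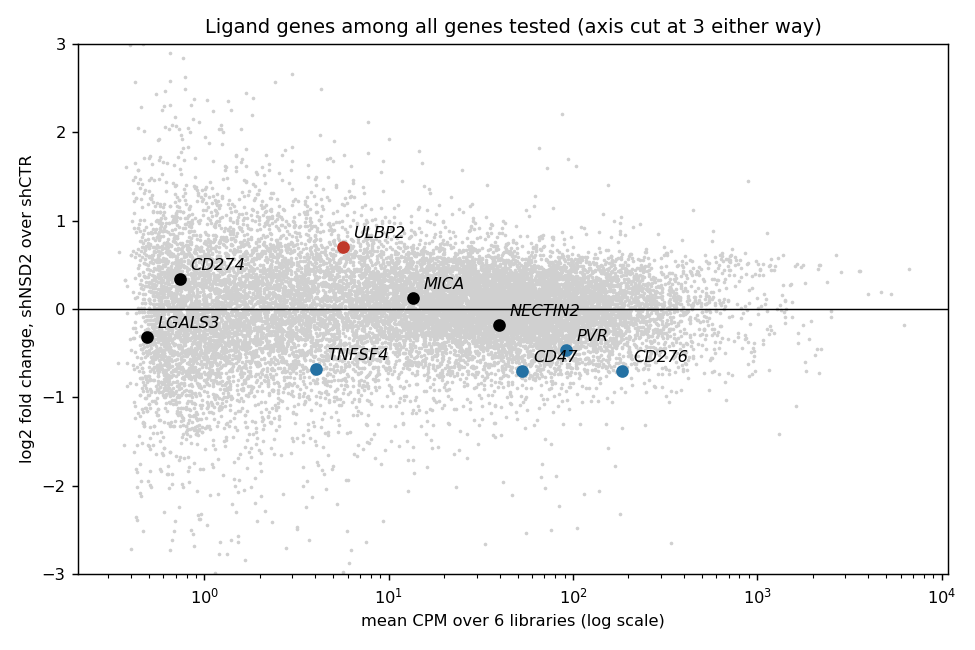
Log2 fold change (shNSD2 over shCTR, vertical axis) against mean CPM over 6 libraries (horizontal axis, log scale) for the genes tested, in grey, with the 9 tested ligand genes named (blue called lower, red called higher, black not called). Beyond the plotted range lie 26 genes, and LGALS3 and CD274 sit at the low end, where the grey points spread most.

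Among the 17160 genes tested, 8.01% had a lower log2 fold change than CD47, 8.06% than CD276, 8.46% than TNFSF4 and 15.6% than PVR. For ULBP2 the share was 93.9%. Falls or rises of this size were therefore not rare in these libraries. By mean CPM, CD276 stood above 93.7% of tested genes, PVR above 84.3% and CD47 above 73.1%, whereas CD274 stood above 8.11% and LGALS3 above 1.26%.

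Levels of different genes were compared per kilobase of merged exons. In shNSD2 libraries the order was CD276 (25.4 ± 1.20 CPM per kb), PVR (21.8 ± 1.21), NECTIN2 (9.88 ± 1.05), MICA (5.92 ± 1.05), ULBP2 (5.17 ± 1.19), CD47 (4.92 ± 0.392), TNFSF4 (0.785 ± 0.0725), CD274, LGALS3 and MICB (SD, n = 3). There the libraries of MICA and ULBP2, of ULBP2 and CD47, and of CD274 and LGALS3 overlapped, so these neighbours do not differ beyond their spread. In shCTR libraries the order was CD276 (41.2 ± 7.34 CPM per kb), PVR (30.0 ± 3.72), NECTIN2 (11.2 ± 1.51), CD47 (7.99 ± 0.686), MICA (5.41 ± 0.359), ULBP2 (3.18 ± 0.138), TNFSF4 (1.26 ± 0.148), LGALS3, CD274 and MICB (SD, n = 3). There the libraries of CD276 and PVR and of LGALS3 and CD274 overlapped. CD47 was in the sixth place, level with ULBP2, in shNSD2 libraries, and in the fourth place, above MICA and ULBP2 in every library, in shCTR libraries. Merged exons can be longer than the transcript expressed, which lowers a value per kilobase.

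**Figure D5:**
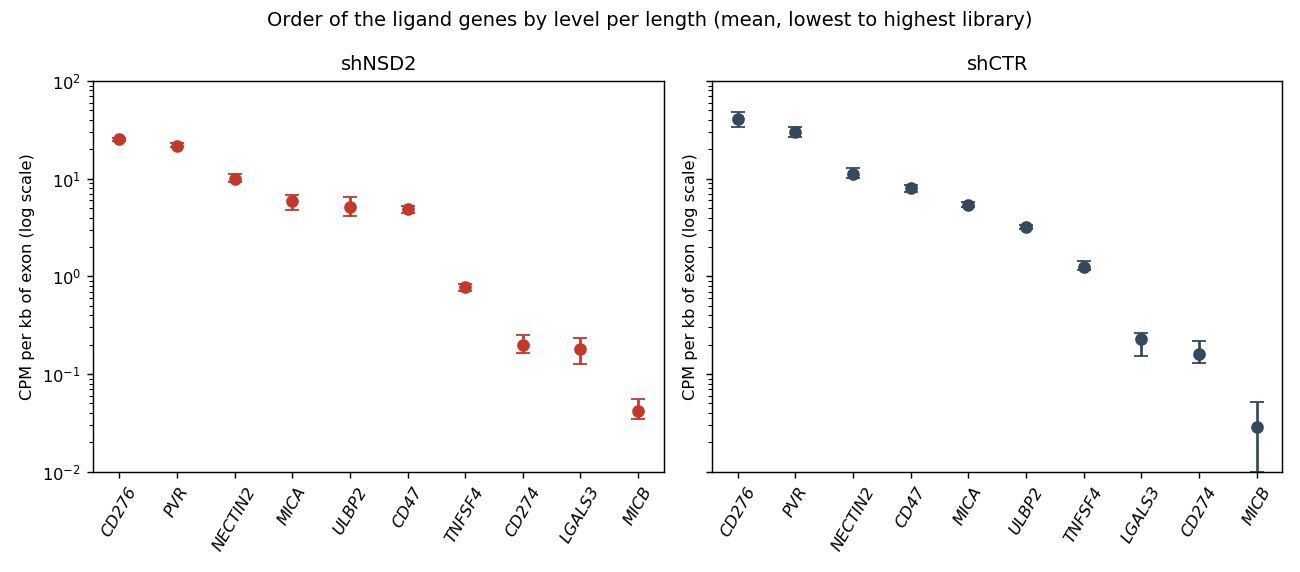
Level per kilobase of exon (CPM per kb, log scale) of the 10 ligand genes, ordered from high to low in shNSD2 libraries (left, red) and in shCTR libraries (right, dark blue). Points are means and bars run from the lowest to the highest of 3 libraries; the bar of MICB in shCTR reaches the axis because 1 library has 0 counts. CD47 is in the sixth place in shNSD2 and in the fourth place in shCTR.

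The genes whose log2 CPM was most like that of CD47 over the 6 libraries were MTERF4 (Pearson r = 0.998), SMAD7 (0.996) and C5orf66 (0.995), of 11217 genes searched. These values are a description over 6 libraries in 2 groups, which any gene with a like difference between the groups can reach, and 34 genes had an r of at least 0.99. MTERF4 averaged 44.6 CPM in shNSD2 libraries and 75.3 CPM in shCTR libraries, SMAD7 8.54 CPM in shNSD2 libraries and 17.6 CPM in shCTR libraries, and C5orf66 4.03 CPM in shNSD2 libraries and 5.98 CPM in shCTR libraries.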

How the data were processed

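Polyadenylated RNA of 6 libraries was measured. The authors deposited raw read counts per gene with no normalization, judged from whole numbers with unequal totals. Per the submitters' processing notes, CASAVA 1.8.2, STAR 2.6.0a and GRCh38 were used; the counting program, annotation, strand setting and row filter are not stated in those notes or the labels. Sample titles gave the groups. The main test was edgeR 4.0.16 under R 4.3.3 (filterByExpr, TMM, quasi-likelihood test, Benjamini-Hochberg over 17160 genes, 14253 removed). Standard errors of log2 fold changes were derived from the F statistic, and CPM values are TMM-scaled. Coordinates and exon lengths are from GENCODE 29, in which 31313 identifiers were found, and upstream sequences from RefSeq (GRCh38.p14). The fit was checked on simulated counts.

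Members and lists were chosen with earlier results of these data known. Named genes are all members, NSD2, up to 3 called genes of smallest p per list (or the most abundant where none was called), and 3 genes most like the member of smallest p. Other names were chosen after their values were seen. Alternatives were other scalings, DESeq2 1.42.0, limma-voom (limma 3.58.1), other filters, robust dispersion, a replicate block, a correction for GC content and exon length, each library left out in turn, and ULBP2 summed with RAET1L and RAET1G.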

Additional observations from a re-analysis of the deposited data

How the results depend on the processing

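CD47, CD276 and PVR kept their direction and their call in all 16 other fits. TNFSF4 lost its call with the replicate block (log2 fold change -0.61, adjusted p = 0.0513) and without shNSD2 2, and ranged from -0.74 to -0.58 with a library left out. ULBP2 kept its call in the 10 other settings and in 4 of the 6 fits without a library, where it ranged from 0.51 to 0.84. In the fits without a library, 3 to 4 members were called lower and 0 to 1 higher. Calls over all genes then ranged from 1116 to 4251 higher and from 1320 to 4011 lower, the highest without shCTR 4, and calls among related genes from 0 to 7 higher and from 3 to 13 lower. With the GC content and length correction 7 related genes were higher, and with the replicate block 5, against 3. The value of MICA, which was not called in any fit, was -0.0039 after that correction. LGALS3 and CD274 were not tested with a filter of 1 CPM in 3 libraries.

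The groups share replicate numbers 1 and 2, and the deviations of same-numbered libraries from their group means correlated at 0.04 and -0.18 over 11218 genes. Pairs with unlike numbers ran from -0.43 (shNSD2 3 with shCTR 2) to 0.48 (shNSD2 1 with shCTR 2). Whether libraries of the 2 groups share a culture or a batch cannot be told from these values. The libraries shNSD2 3 and shCTR 4 each have a number that the other group lacks. The group difference with the block therefore rests on the libraries numbered 1 and 2. With the block, 3242 genes were higher and 3001 lower, against 2658 and 2605 without it. ULBP1 then passed the edgeR test (0.66, adjusted p = 0.00105). An effect of the block cannot be told apart from that of setting aside shNSD2 3 and shCTR 4. Depth limits MICB, LGALS3 and CD274.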
